A study of Mus musculus with 16 samples.

Results

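Within one culture condition of a series on mouse pluripotent stem cells, LIF with serum, 2 arrays carry the sample code LS and the other 2 the code LSFF. The 4 arrays were chosen by their titles and description codes, not by any measured value, and are 4 of the 16 in the series. LS arrays 1 and 2 are the first and second titled replicates of the condition, at passages 23 and 24. LSFF arrays 1 and 2 are the third and the fourth, both at passage 26. The labels do not explain the codes. All 16 arrays hold total RNA of cultured 129/Ola lines. The LS and LSFF lines were made from embryos before implantation, grown in LIF with serum, and are labelled naive. The EpiSC lines came from post-implantation epiblast, were grown in Activin A with bFGF, and are labelled primed. The 2i_LIF and 2iSB_LIF lines are pre-implantation lines labelled ground state, grown with LIF and 2i, and 2iSB_LIF also with SB431542.

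Embryonic stem cells keep dividing without committing to a fate when the cytokine LIF activates STAT3 and serum supplies BMP signals. In this medium a culture is a mixture: cells drift between a naive program and early signs of epiblast or primitive endoderm, the layer that lays down basement membrane. The 2i inhibitors block MEK and GSK3 and hold the cells closer to one state, and SB431542 blocks receptors of the TGF-beta family that Nodal and Activin use. Such lines are grown either on a layer of growth-arrested fibroblasts or on a coated surface, and the labels do not say on which.

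Both LS arrays were on slide 1 and both LSFF arrays on slide 2, and each slide was scanned at its own time, so code and slide cannot be told apart from these 4 arrays alone. Passage differed between the codes too, and a fit with passage as a covariate called 1078 genes, against 1411 without it. The 2i_LIF and 2iSB_LIF groups each had 3 arrays on slide 1 and 1 on slide 2, and they gave the only estimate of a slide difference, while all 4 EpiSC arrays lay on slide 2. The share of probes well above background, a call of the scanner software, was 58.96% to 60.83% on LS arrays and 51.48% to 55.35% on LSFF arrays. Ground-state arrays showed the same gap between slides, with 60.39% to 63.63% on slide 1 and 52.95% to 53.28% on slide 2. No spot was saturated. Having only 2 arrays a side limits the precision of each value. The p-values measure the spread between arrays within a group, pooled over all 5 groups, and not that of LS and LSFF alone. Nothing states how the lines of one code relate to each other. LS array 2 stood apart from the other 3 in Y-linked transcripts. Eif2s3y, a Y-linked translation factor subunit, lay at 3.45 on LS array 1 and −4.44 on LS array 2, against 3.70 and 3.91 on LSFF arrays. Ddx3y, a Y-linked RNA helicase, lay at 1.06 on LS array 1 and −4.51 on LS array 2, against 1.49 and 1.39 on LSFF arrays. Levels here and below are log2 of the background-subtracted signal less the array's own 75th percentile. Values near or under −5 are at the limit of detection, since the lowest signal called well above background lay between −5.20 and −4.65 on the 4 arrays.

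The defining markers of the labelled cell type were present. All 8 embryonic stem cell markers, which include Pou5f1, Sox2, Nanog and Esrrb, were well above background on the 4 arrays. Their summed signal was 724 and 674 times the array's 75th percentile on LS arrays, against 510 and 526 times on LSFF arrays and 50.7 to 54.7 times on EpiSC arrays. The 11 fibroblast markers behaved differently. Their summed signal was 79.5 and 63.8 on LS arrays, against 9.997 and 10.97 on LSFF arrays, in the same unit. EpiSC arrays had 127 to 197 and ground-state arrays 1.27 to 1.80. All 11 markers were well above background on both LS arrays, 8 and 9 of them on LSFF arrays, and 3 to 6 on ground-state arrays. Slide 2 held all 4 EpiSC arrays, so that they give no slide difference for these genes. In RNA from a whole culture, fewer cells of a type and less RNA per cell cannot be told apart.

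**Figure D1:**
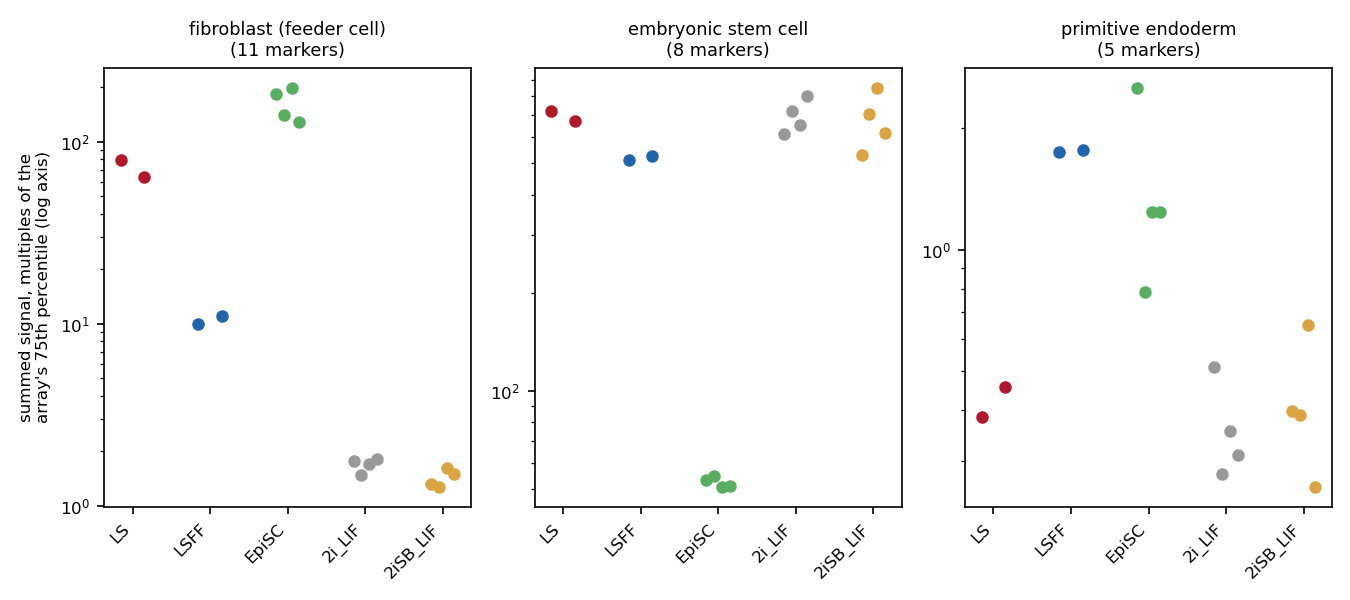
Summed signal of 3 marker sets on each of the 16 arrays, as multiples of the array's 75th percentile on a log axis, 1 point per array. For the 11 fibroblast markers the LS arrays (79.5 and 63.8) sit between the EpiSC arrays and the LSFF arrays (9.997 and 10.97), and the ground-state arrays are lowest. For the 5 primitive endoderm markers the LSFF arrays are above the LS arrays, and the EpiSC arrays (0.784 to 2.52) lie on both sides of the LSFF arrays.

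The 2 arrays of each code were close to one another and the codes were far apart. Over 12280 genes measured on all 16 arrays, LS arrays correlated at 0.994 with each other and LSFF arrays at 0.998, while pairs across the codes correlated at 0.962 to 0.971. A difference over 2-fold was seen for 0.888% of genes within LS and 0.187% within LSFF, against 11.0% to 15.7% across the codes. Ground-state lines of one medium set a scale for this distance. They differed by over 2-fold at 4.66% to 10.3% of genes on one slide and at 4.66% to 18.7% across slides. The distance between LS and LSFF thus lay inside the range of single lines of one medium across slides, whereas the pairs within a code lay below the range of ground-state lines on one slide.

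Of 15221 genes tested, 1411 were called between LS and LSFF by limma, at 2-fold or more and an adjusted p below 0.05. In LS, 971 were higher and 440 lower, so that 68.8% of calls were higher, and the median difference over all genes was −0.02. Against all genes tested these are 6.38% called higher and 2.89% called lower, the background for every list below. The split depended on the scaling. With arrays scaled to their medians, 486 were higher and 890 lower (35.3% higher), with the median of all genes at −0.47. Quantile normalization gave 831 higher and 662 lower (55.7%), and the values the authors deposited gave 754 higher and 647 lower (53.8%). Leaving out 1 array lowered the count to 343 without LS array 1, 714 without LS array 2, 406 without LSFF array 1 and 434 without LSFF array 2. The arrays of the codes did not overlap for 77.5% of the genes tested, so that non-overlap of 2 arrays with 2 is in itself no result. A gene could enter the test through the code where it was high. Of 741 genes detected on both LS arrays and neither LSFF array, 349 were called. Of 13739 well above background on all 4 arrays, 541 were called higher and 369 lower.

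The slide check was run on the ground-state lines. Slide 1 minus slide 2 within 2i_LIF and 2iSB_LIF was called for 1072 genes, 7.04% of those tested, 964 of them higher on slide 1. Of the LS minus LSFF calls, 233 were also slide calls of the same sign, which is 16.5% of the first list and 21.7% of the second, and 6 were slide calls of the opposite sign. A fit with slide as a block asks whether LS minus LSFF departs from this slide difference, in either direction. A gene with little difference between LS and LSFF can therefore be called in it. It called 710 genes higher in LS than the slide difference gives (4.66% of those tested) and 319 lower (2.10%). Both fits together called 426 genes higher (2.80%) and 159 lower (1.04%), 585 in all. Among these 585 genes, 398 were well above background on all 8 ground-state arrays, so that their slide difference was measured there, while 87 higher and 27 lower genes were below background on every ground-state array. For those genes the slide estimate is made from background signal.

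**Figure D2:**
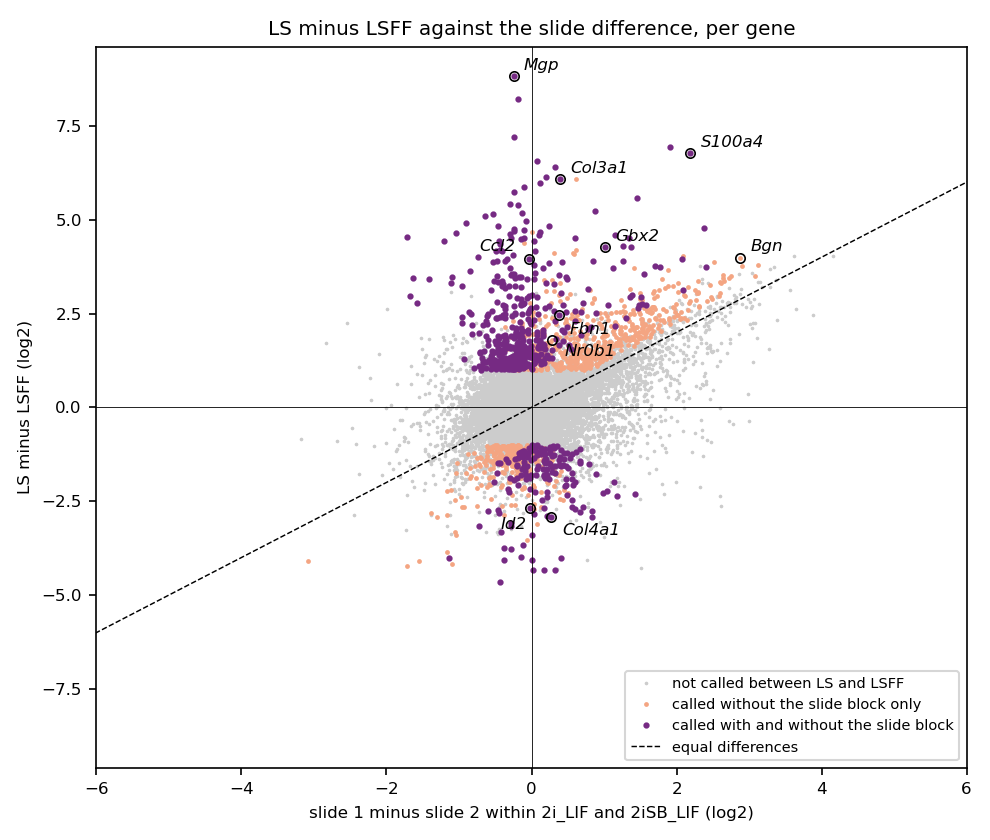
Each point is a gene, with the slide 1 minus slide 2 difference of ground-state lines on the horizontal axis and LS minus LSFF on the vertical axis, both log2. Col3a1, Ccl2, Fbn1, Col4a1 and Id2 lie near the vertical line, with slide differences between −0.03 and 0.39, while S100a4 (2.19) and Bgn (2.87) have large slide differences too. Col3a1 and Ccl2 were well above background on only 3 of the 8 ground-state arrays, so their slide differences come mainly from background signal.

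The 10 genes with the largest differences toward LS were taken from those called in both fits and measured on all 4 arrays. Of these 10, 3 code for collagen chains. Col3a1, a chain of fibrillar collagen III, lay at 1.97 and 1.76 on LS arrays, against −4.20 and −4.24 on LSFF arrays. The difference was 6.09 on the log2 scale (SE 0.43, adjusted p = 1.8e-06), and 5.70 with slide as a block (adjusted p = 0.00013). Col6a3, a chain of the microfibril-forming collagen VI, lay at 1.60 and 1.20 on LS arrays, against −3.70 and −4.34 on LSFF arrays. Its difference was 5.43 (SE 0.28, adjusted p = 1.5e-07), and its slide difference was −0.29. Col6a3 was well above background on 0 of the 8 ground-state arrays and Col3a1 on 3, so their slide estimates come mainly from background signal. For both genes every LS array was far above both LSFF arrays, and the EpiSC arrays, all on slide 2, were higher still, at 2.89 to 3.74 for Col3a1 and 1.79 to 2.55 for Col6a3. Col6a1, another collagen VI chain, lay at 2.17 and 1.68 on LS arrays, against −2.54 and −2.94 on LSFF arrays. S100a4, a calcium-binding protein of motile mesenchymal cells, had the largest difference of these, 6.77 (SE 0.85, adjusted p = 0.00033), with 4.06 and 3.68 on LS arrays, against −2.92 and −2.87 on LSFF arrays. It was also a slide call, at 2.19, and with slide as a block the difference was 4.58. Fbn1, the microfibril protein fibrillin, lay at −0.08 and −0.48 on LS arrays, against −2.81 and −2.67 on LSFF arrays, a difference of 2.47 (SE 0.44, adjusted p = 0.0040). Without LS array 1 the adjusted p of Fbn1 was 0.056.

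As a group, the fibroblast markers held more calls than any other list of 10 or more tested genes. Of the 30 markers, all tested, 17 were called higher in LS and none lower, with a median difference of 2.51, or 1.94 with genes at their detection bounds, against −0.02 over all genes. With slide as a block 14 were called, and with median scaling 16. The group mean on EpiSC arrays was above that on LS arrays for 14 of the 17, and the mean on LSFF arrays was above the ground-state mean for 14 of the 17. Col1a1, a chain of collagen I, lay at 4.49 and 4.29 on LS arrays, against 1.16 and 1.60 on LSFF arrays. Postn, the matricellular protein periostin, lay at −0.28 and −0.44 on LS arrays, against −3.84 and −4.78 on LSFF arrays, where only 1 array was well above background. Lox, the enzyme that cross-links collagen, was not detected on LSFF arrays and was at least 24.5-fold higher in LS. Col1a2, Bgn and Fap were the 3 whose call was lost with slide as a block, at adjusted p = 0.051, 0.090 and 0.15. Bgn, the small proteoglycan biglycan, had a slide difference of 2.87 and a blocked difference of 1.12. The other 13 markers were not called. Among them Vim, the mesenchymal intermediate filament, differed by 0.80 (adjusted p = 0.22), Pdgfrb, a growth factor receptor, by 0.33 (adjusted p = 0.53) and Mmp2, a gelatinase, by −0.76 (adjusted p = 0.39).

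Of 38 collagen and matrix genes tested, 14 were called higher and 2 lower, and 11 and 2 were called with slide as a block. Without LS array 1, 9 were called higher. The 14 had EpiSC means above their LS means and LSFF means above the ground-state mean. The 2 lower genes were the basement membrane collagens Col4a1 and Col4a2, described below. Fbln2, a matrix glycoprotein, lay at 4.40 and 3.77 on LS arrays, against 0.78 and 0.73 on LSFF arrays. Tnc, the matricellular protein tenascin C, was at least 6.52-fold higher in LS, being undetected on LSFF arrays. Mgp, an inhibitor of calcification made by cartilage and vessel wall cells, had the largest bound. It lay at 3.26 and 3.05 on LS arrays and below detection on both LSFF arrays, and was at least 271-fold higher in LS. Tm4sf1, a membrane protein of mesenchymal and endothelial cells, Serpina3f, a protease inhibitor, and Cavin2, a coat protein of caveolae, were at least 94.7-fold, 72.3-fold and 61-fold higher. The bound of Serpina3f holds for the probe used only, which differed by 7.21, against 3.66 for its other tested probe. Tm4sf1 was also called in the slide check, at 1.91, and its difference with slide as a block was 5.01.

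**Figure D3:**
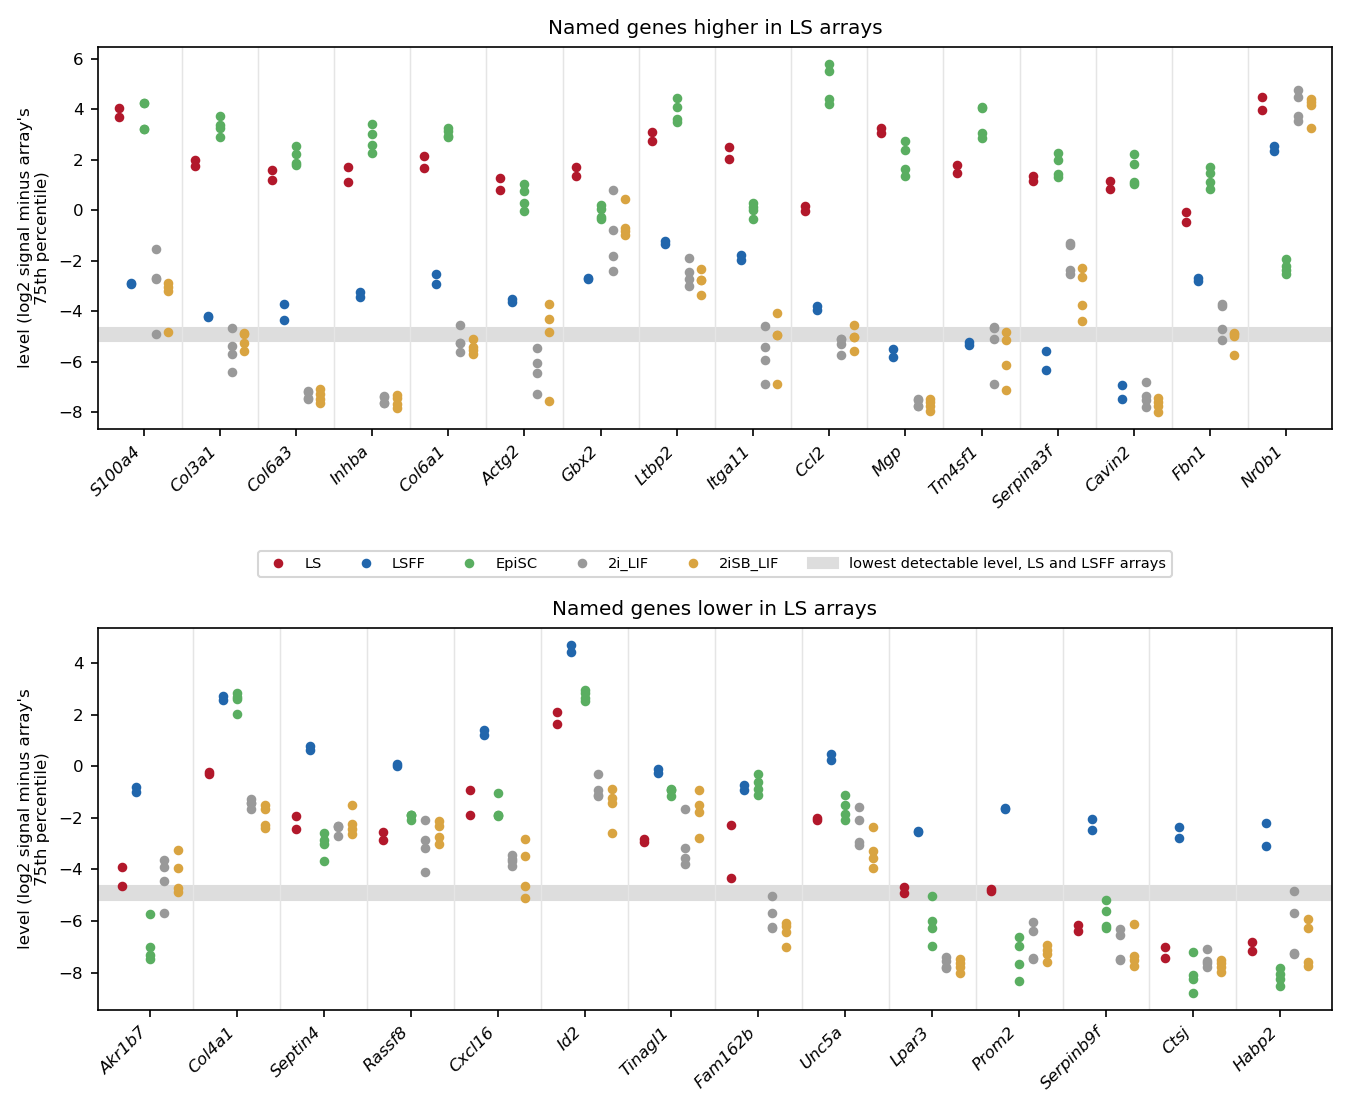
Levels of the named genes on all 16 arrays, log2 signal less the array's 75th percentile, 1 point per array, with LS left of LSFF in each gene. The grey band spans the lowest signal well above background on the LS and LSFF arrays (−5.20 to −4.65). LS and LSFF points do not overlap for any of these genes, but all except Fbn1 and Nr0b1 were picked on that condition. Over all genes tested 77.5% did not overlap. For every gene shown as higher in LS except Nr0b1 the EpiSC points lie above the LSFF points.

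The start regions of 3 collagen genes that differed together are shown so that their sequences can be set side by side. Each is the 250 bases before the RefSeq transcription start on GRCm38.p6, read 5′ to 3′ on the gene's own strand, with capitals marking a CCAAT box (CCAAT or, for the other strand, ATTGG), the site bound by the factor NF-Y that is well described in type I collagen promoters.
Col1a2 (chr6:4505368-4505617, plus strand): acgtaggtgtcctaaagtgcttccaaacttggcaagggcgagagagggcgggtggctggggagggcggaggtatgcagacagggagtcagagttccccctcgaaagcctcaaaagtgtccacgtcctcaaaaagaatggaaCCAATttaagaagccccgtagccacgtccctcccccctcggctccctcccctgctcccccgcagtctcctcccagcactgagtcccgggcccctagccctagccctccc
Col3a1 (chr1:45311288-45311537, plus strand): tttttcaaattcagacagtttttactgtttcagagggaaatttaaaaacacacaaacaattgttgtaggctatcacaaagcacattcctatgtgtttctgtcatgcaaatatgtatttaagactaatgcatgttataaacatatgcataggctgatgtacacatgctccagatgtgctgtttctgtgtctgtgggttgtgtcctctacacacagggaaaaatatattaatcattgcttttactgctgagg
Col6a3 (chr1:90843972-90844221, minus strand): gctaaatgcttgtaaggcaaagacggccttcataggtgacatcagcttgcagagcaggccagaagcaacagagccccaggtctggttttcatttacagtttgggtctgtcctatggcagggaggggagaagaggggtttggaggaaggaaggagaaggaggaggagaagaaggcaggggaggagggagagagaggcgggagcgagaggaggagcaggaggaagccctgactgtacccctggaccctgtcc
Only the Col1a2 window holds the box, beginning 109 bases before the start. Over all 32851 RefSeq windows of this length 33.8% held it on either strand, compared with 3 of the 14 windows of the 11 collagen and matrix genes that were called higher and have an entry. These letters were a description of the windows and say nothing about binding.

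Secreted signals of inflammation and matrix turnover were higher in LS as well. Of 19 chemokines and cytokines tested, 5 were called higher and 1 lower, and the same counts were found with slide as a block. Of the 13 well above background on all 4 arrays, 2 were called higher and 1 lower. Ccl2, which draws monocytes, lay at 0.15 and −0.02 on LS arrays, against −3.98 and −3.79 on LSFF arrays. The difference was 3.94 (SE 0.46, adjusted p = 0.00017), the slide difference was −0.03, and EpiSC arrays reached 4.21 to 5.78. Ccl2 was well above background on 3 of the 8 ground-state arrays, so its slide difference comes mainly from background signal. Ccl7, a related chemokine, Il6, a cytokine that also signals to STAT3, and Cxcl1, which draws neutrophils, were undetected on LSFF arrays and at least 23.4-fold, 9.12-fold and 7.54-fold higher in LS. Ptgs2, the inducible prostaglandin synthase, differed by 2.89, and by 2.02 with slide as a block (adjusted p = 0.18). Cxcl16, a membrane-bound chemokine, went the other way, at −1.88 and −0.93 on LS arrays, against 1.20 and 1.40 on LSFF arrays. The call on Cxcl16 was lost without LS array 1 (adjusted p = 0.12), LSFF array 1 (0.065) or LSFF array 2 (0.082). Of 17 matrix metalloproteinase and inhibitor genes tested, 5 were called higher and none lower. Among the 14 well above background on all 4 arrays, 3 were called higher. Timp1 and Timp3, inhibitors of these proteases, differed by 1.63 and 2.56, and Mmp3, a stromelysin, was at least 5.43-fold higher. Leaving out any 1 of the 4 arrays gave 3 calls on the protease and inhibitor list. The 5 higher chemokine calls became 3 without LS array 1, LSFF array 1 or LSFF array 2.

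Contractile and adhesion genes were called in both directions. Of 21 smooth muscle type contractile genes tested, 2 were called higher and 2 lower, with a median of −0.49, and 1 higher and 2 other genes lower with slide as a block. The contractile shares were 9.52% each way, against 6.38% higher and 2.89% lower over all genes tested. With 2 calls each way this is no result about the contractile list. Of 21 integrin and focal adhesion genes tested, 4 were called higher and 3 lower, with a median of −0.26, and 2 higher and none lower with slide as a block. Each list has 1 of the 10 largest differences toward LS among genes called in both fits and measured on all 4 arrays. Actg2, the smooth muscle gamma actin, lay at 1.27 and 0.82 on LS arrays, against −3.52 and −3.62 on LSFF arrays. Itga11, a collagen-binding integrin chain, lay at 2.51 and 2.05 on LS arrays, against −1.98 and −1.78 on LSFF arrays. Itga11 was higher on LS arrays than on any EpiSC array, where it lay between −0.37 and 0.27. Both calls were lost without LS array 1, at adjusted p = 0.073 for Actg2 and 0.050 for Itga11, and that on Actg2 also without LSFF array 1 (0.055) or 2 (0.057). Cd44, the hyaluronan receptor, differed by 1.76. Toward LSFF, Tpm1, a tropomyosin, differed by −1.46, Smtn, the smooth muscle protein smoothelin, by −1.14, Itgb3, an integrin chain, by −1.26 and Vcl, the focal adhesion protein vinculin, by −1.003. The 5 tested probes of Tpm1 differed by −1.46 to 0.03, and the 2 of Smtn by −1.14 and −0.29. With the mean over a gene's probes, 0 contractile genes were called lower. Without LS array 1, LS array 2, LSFF array 1 or LSFF array 2, contractile genes gave 0, 1, 1 and 0 higher calls and no lower call, and adhesion genes 1, 2, 2 and 3 higher and 1, 1, 0 and 1 lower. Among 16 regulators of the mesenchymal state tested, 6 were called higher and none lower, 4 with slide as a block and 3 with median scaling. Zeb1, a repressor of epithelial genes, lay at 0.05 and −0.34 on LS arrays, against −1.81 and −1.62 on LSFF arrays. Snai2, of the Snail family, differed by 1.61 (adjusted p = 0.012), and by 1.24 with slide as a block (adjusted p = 0.10). The 6 calls on these regulators became 3, 4, 3 and 4 when the arrays were left out in the same order.

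Ligands and targets of the Nodal, Activin and TGF-beta pathway formed the list with the second highest share of calls. Of 22 genes tested, 10 were called higher in LS and none lower, with a median of 0.89. With slide as a block 8 were called, and with median scaling 5. One of the 10, Tgfbr2, has a second, dimmer probe of the opposite sign (−1.03, against 1.40 for the probe used). Inhba, the subunit that pairs to make Activin A, lay at 1.70 and 1.11 on LS arrays, against −3.43 and −3.25 on LSFF arrays, a difference of 4.74 (SE 0.31, adjusted p = 9.9e-07). Inhba was below background on all 8 ground-state arrays and lay between 2.28 and 3.42 on EpiSC arrays. Inhbb, the subunit of Activin B, lay at 2.50 and 1.38 on LS arrays, against −1.49 and −1.25 on LSFF arrays. Nodal, the ligand of the early embryo, lay at 3.28 and 3.21 on LS arrays, against 2.20 and 2.11 on LSFF arrays. The difference of Nodal was 1.09 (SE 0.25, adjusted p = 0.013), and 1.54 with slide as a block. Its feedback inhibitors were higher too. Lefty1 lay at 3.40 and 3.79 on LS arrays, against 1.60 and 1.49 on LSFF arrays, and Lefty2 differed by 2.26 (SE 0.54, adjusted p = 0.017). Ltbp2, a matrix protein of the latent TGF-beta binding family, lay at 3.12 and 2.74 on LS arrays, against −1.33 and −1.22 on LSFF arrays. Pmepa1 and Smad7, both induced by TGF-beta and both limiting it, differed by 3.54 and 1.60. Skil and Tdgf1, the Nodal coreceptor Cripto, differed by −0.34 (adjusted p = 0.52) and 0.35 (adjusted p = 0.26). The EpiSC mean was above the LS mean for 9 of the 10 called genes. Nodal, Lefty1, Lefty2 and Sp5, a Wnt target, were the 4 called higher of 13 primitive streak and mesendoderm genes tested, and with median scaling 1 of that list was called. The streak list had 1 call without LS array 1 and none without LS array 2, LSFF array 1 or LSFF array 2. The 10 calls on the Nodal list became 5, 6, 5 and 6 when these arrays were left out in the same order.

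The naive pluripotency program was partly higher in LS. Of 24 naive genes tested, 6 were called higher and none lower, with a median of 0.75. The fit with slide as a block also called 6, of which 4 were shared, but median scaling called 1. Leaving out LS array 1, LSFF array 1 or LSFF array 2 gave 2, 2 and 3 calls on naive genes. Gbx2, a homeobox factor induced by LIF through STAT3, had by far the largest difference. It lay at 1.73 and 1.37 on LS arrays, against −2.72 and −2.70 on LSFF arrays, a difference of 4.26 (SE 0.75, adjusted p = 0.0034) and of 3.25 with slide as a block (adjusted p = 0.043). Ground-state arrays spread widely for Gbx2, between −2.41 and 0.79, and EpiSC arrays lay between −0.34 and 0.22, so that LS was above all other arrays and LSFF below all of them. Nr0b1, the orphan receptor Dax1 that works with Pou5f1 and Esrrb, lay at 4.48 and 3.99 on LS arrays, against 2.34 and 2.53 on LSFF arrays. Ground-state arrays ranged from 3.25 to 4.77 and EpiSC arrays from −2.53 to −1.94. The difference of Nr0b1 was 1.80 (SE 0.42, adjusted p = 0.015). Its call was lost with slide as a block (1.52, adjusted p = 0.10), with median scaling (1.35, adjusted p = 0.071), and without LS array 1 (adjusted p = 0.15), LSFF array 1 (0.10) or LSFF array 2 (0.079).

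Other naive genes differed less. Nr5a2, an orphan receptor that binds the Pou5f1 promoter, lay at 3.62 and 3.50 on LS arrays, against 1.86 and 1.96 on LSFF arrays, and kept its call with slide as a block (2.00, adjusted p = 0.0049). The other tested probe of Nr5a2 differed by 0.88, against 1.65 for the probe used. Klf4, a factor of the naive network, differed by 1.03 (adjusted p = 0.041), and by 0.64 with slide as a block (adjusted p = 0.28). Tdh, the threonine dehydrogenase of mouse embryonic stem cells, differed by 1.29 (adjusted p = 0.049) and Zfp459, a zinc finger gene, by 1.34 (adjusted p = 0.0055). Nanog differed by 0.65 (adjusted p = 0.16), Dppa3 by −0.36 (adjusted p = 0.82) and Fgf4, the growth factor that starts differentiation, by −0.30 (adjusted p = 0.40). None of the 14 core pluripotency genes and none of the 16 primed epiblast genes tested was called by limma, and Pou5f1 differed by 0.36 (adjusted p = 0.27). At an unadjusted p under 0.05, 4 core genes were higher and 1 lower, and 2 primed genes were higher and 2 lower. Otx2, a factor of the early epiblast, lay at 3.77 and 3.98 on LS arrays, against 4.998 and 5.12 on LSFF arrays, a difference that missed the threshold (−1.18, adjusted p = 0.067). The summed signal of the 3 defining primed epiblast markers was 17.1 and 21.6 on LS arrays, against 36.5 and 39.97 on LSFF arrays, with no overlap. It was 46.1 to 59.7 on EpiSC arrays and 10.96 to 29.35 on ground-state arrays. Otx2 made up most of this sum on LS and LSFF arrays. Pou3f1 overlapped, at 1.68 and 2.34 on LS arrays, against 2.12 and 2.32 on LSFF arrays. Fgf5 was higher on LS arrays, at −2.01 and −0.44, against −2.26 and −2.34, so that the 3 markers did not move together. Osmr, the receptor for oncostatin M and a relative of the LIF receptor, was undetected on LSFF arrays and at least 20.01-fold higher in LS. It was 1 of 3 genes of the LIF and STAT3 list called higher among 18 tested, beside Gbx2 and Klf4.

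The next list held feedback and immediate early genes of ERK signalling, the pathway that 2i blocks through MEK, here ERK feedback genes for short. Of 24 tested, 6 were called higher in LS and none lower, with a median of 0.59. Fosl1 and Ier2, both immediate early genes, were among the 6. With slide as a block 4 were called and the list median was −0.13, and with median scaling 3 were called. Spry2, an inhibitor that ERK induces, lay at 0.35 and −0.06 on LS arrays, against −2.04 and −1.90 on LSFF arrays, and Dusp6, the phosphatase of ERK, differed by 1.64 (adjusted p = 0.014). Spry4 was undetected on LSFF arrays and at least 14.0-fold higher in LS. In this list 5 of the tested genes were also slide calls, higher on slide 1. Of 21 Wnt targets, 5 were called higher and 2 lower, against 1 and 2 with slide as a block. Cdx1, a homeobox gene, lay at −0.02 and 0.15 on LS arrays, against −2.74 and −2.23 on LSFF arrays, and Znrf3, which removes Wnt receptors, differed by −1.29. Of 17 stress genes tested, Chac1 and Trib3, both induced by the integrated stress response, were the 2 called. Chac1 lay at 4.09 and 3.99 on LS arrays, against 0.86 and 0.81 on LSFF arrays. When LS array 1, LS array 2, LSFF array 1 or LSFF array 2 was left out, ERK feedback genes gave 3, 5, 3 and 4 calls, and Wnt targets 2, 1, 2 and 2 higher and 0, 2, 0 and 1 lower.

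**Figure D4:**
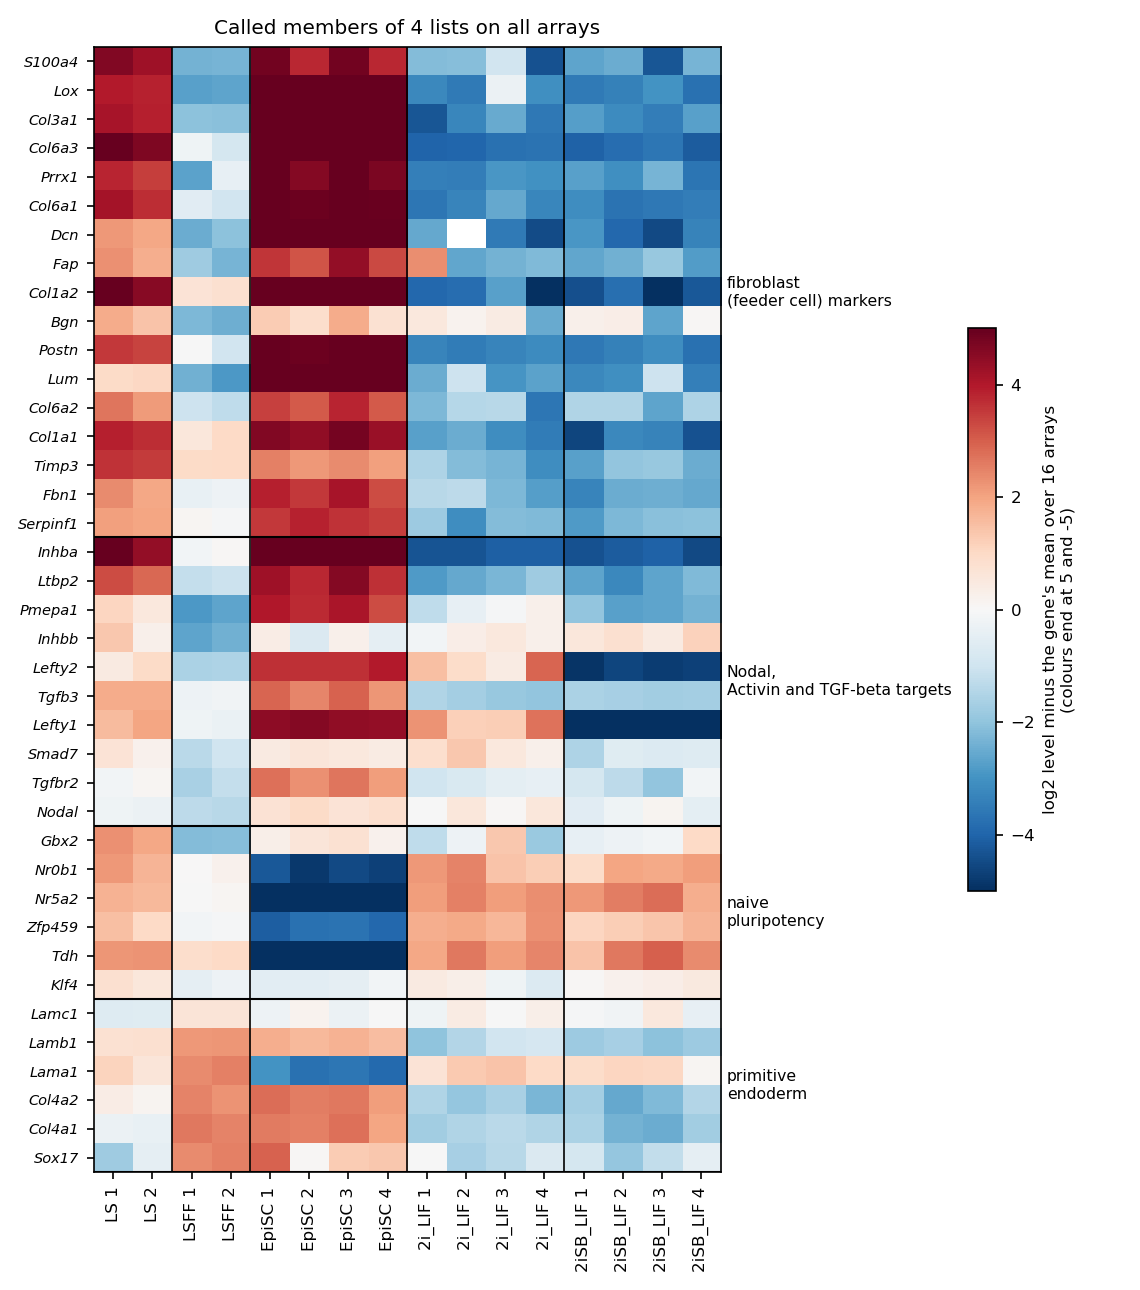
Called members of 4 lists on all 16 arrays, as log2 level minus the gene's mean over the arrays, with white for a missing value. Fibroblast markers are high on LS and EpiSC arrays. Primitive endoderm list genes are higher on LSFF than on LS arrays.

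Genes of primitive endoderm and its basement membrane had the highest share of calls lower in LS among lists of 10 or more tested genes. Of 17 tested, 6 were called lower and none higher, with a median of −1.77, or −1.58 at detection bounds. With slide as a block 2 were called, and each count with 1 of the 4 arrays left out was 2 or 3. Col4a1 lay at −0.22 and −0.31 on LS arrays, against 2.74 and 2.56 on LSFF arrays, a difference of −2.91 (SE 0.30, adjusted p = 6.7e-05) and of −3.19 with slide as a block (adjusted p = 0.00050). On EpiSC arrays Col4a1 lay between 2.04 and 2.83. Col4a2, which forms the collagen IV trimer with it, lay at 0.02 and −0.24 on LS arrays, against 2.13 and 1.87 on LSFF arrays. The 2 genes are read in opposite directions from neighbouring starts on chromosome 8. Their 300-base RefSeq start windows on GRCm38.p6, chr8:11312777-11313076 on the minus strand for Col4a1 and chr8:11312555-11312854 on the plus strand for Col4a2, share 78 bases. The chains of laminin-111 moved the same way: Lama1 by −1.58, Lamb1 by −1.40 and Lamc1 by −1.25, each called, but none of them with slide as a block (adjusted p = 0.071, 0.064 and 0.13). Sox17, the transcription factor of endoderm, lay at −5.18 and −3.82 on LS arrays, against −1.04 and −0.87 on LSFF arrays. It was not well above background on LS array 1. Its call was lost with slide as a block, where the 2 called genes of this list were Col4a1 and Col4a2. Gata6 and Gata4, which specify the lineage, lay lower on both LS arrays but did not pass, with differences of −2.79 (adjusted p = 0.065) and −1.96 (adjusted p = 0.14). Dab2, an endocytic adaptor of the same layer, differed by 0.03 (adjusted p = 0.98). The summed signal of the 5 defining markers was 0.386 and 0.456 on LS arrays, against 1.74 and 1.76 on LSFF arrays, and 0.258 to 0.652 on ground-state arrays. EpiSC arrays ranged from 0.784 to 2.52, a range that includes the LSFF values. The EpiSC mean was above the LS mean for 5 of the 6 genes called lower.

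Epithelial genes were lower in LS along with them. Of 24 tested, 6 were called lower and none higher, with a median of −1.39, though only 1, Esrp1, held with slide as a block. Without LS array 1 or LSFF array 1 no epithelial gene was called by limma, and without LS array 2 or LSFF array 2 the counts were 2 and 1. Esrp1, a splicing regulator of epithelial cells, lay at 1.87 and 1.81 on LS arrays, against 3.23 and 3.21 on LSFF arrays. The other tested probe of Esrp1 differed by −0.84, against −1.38 for the probe used. Krt18 and Krt19, keratins of simple epithelium, differed by −2.08 and −2.65 (adjusted p = 0.049 and 0.0385) and were uneven between the LS arrays. Krt19 lay at 2.02 and 3.51 on LS arrays, against 5.46 and 5.38 on LSFF arrays. Of 13 trophectoderm genes tested, 2 were called higher and 3 lower, 1 and 0 with slide as a block. Cdx2, the trophectoderm factor, was at least 2.42-fold higher in LS. Leaving out 1 array gave at most 1 trophectoderm call in each direction.

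Among the other genes with the largest differences toward LSFF, again taken from those called in both fits, was Id2, a BMP-induced inhibitor of helix-loop-helix factors. It lay at 1.64 and 2.12 on LS arrays, against 4.44 and 4.69 on LSFF arrays, a difference of −2.69 (SE 0.43, adjusted p = 0.0020) with a slide difference of −0.02. Akr1b7, an aldo-keto reductase, lay at −3.92 and −4.65 on LS arrays, against −0.79 and −0.98 on LSFF arrays. Septin4, a cytoskeletal GTPase, lay at −2.45 and −1.93 on LS arrays, against 0.80 and 0.64 on LSFF arrays. For Septin4 and Rassf8, of the Ras association family, LSFF was above every one of the other 14 arrays. The same held for Id2, Akr1b7, Cxcl16, Tinagl1, Unc5a and Lpar3, but not for Col4a1 or Fam162b. Rassf8 lay at −2.84 and −2.54 on LS arrays, against 0.02 and 0.11 on LSFF arrays. The remaining 4 of the 10, Tinagl1, a matrix protein, Fam162b, Unc5a, a netrin receptor, and Lpar3, a receptor for lysophosphatidic acid, differed by −2.69, −2.48, −2.39 and −2.27. Without LS array 1 the calls on all 4 were lost (adjusted p = 0.058 to 0.16). Without LSFF array 1 or 2 those on Tinagl1, Fam162b, Unc5a and Akr1b7 were lost (0.054 to 0.092), and without LS array 2 those on Tinagl1, Unc5a and Akr1b7 (0.060 to 0.065). Of genes undetected in LS, Prom2, a prominin of epithelial membranes, was at least 8.94-fold lower in LS, and Serpinb9f, a protease inhibitor, at least 7.17-fold lower. Serpinb9f was a slide call too, at −1.14. Ctsj, a placental cathepsin, and Habp2, a serine protease, were at least 5.72-fold and 5.44-fold lower.

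Metabolic and immune lists with calls toward LSFF were smaller. Of 32 cholesterol and fatty acid synthesis genes tested, 5 were called lower and none higher, and 3 lower with slide as a block. Insig1, the sterol sensor that holds SREBP in the endoplasmic reticulum, lay at −0.62 and −0.80 on LS arrays, against 1.09 and 0.97 on LSFF arrays. Of 26 interferon and antigen presentation genes, 4 were called lower and none higher, 2 with slide as a block. B2m, the light chain of MHC class I, lay at 2.61 and 3.03 on LS arrays, against 4.15 and 4.28 on LSFF arrays. Of 23 p53 targets, 4 were called lower, none of them with slide as a block. No gene of 32 for glycolysis and hypoxia or of 27 for oxidative phosphorylation was called, though median scaling called 2 of the glycolysis genes lower. At an unadjusted p under 0.05, 1 glycolysis gene was higher and 5 were lower, and 1 oxidative phosphorylation gene was higher. Without LS array 1, LS array 2, LSFF array 1 or LSFF array 2, the sterol and fatty acid list gave 2, 4, 3 and 4 lower calls, the interferon list 0, 3, 0 and 1, and the p53 list 0, 2, 1 and 0.

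Markers of other cell types did not move as one. Of 12 macrophage and haematopoietic genes tested, 5 were called higher in LS, 3 with slide as a block. Only 7 of the 12 were well above background on all 4 arrays, and 1 of those was called. In this list 3 genes were also slide calls, higher on slide 1. Lyz1 and Lyz2, the lysozymes, and Tyrobp, a myeloid adaptor, were undetected on LSFF arrays and at least 31.0-fold, 4.87-fold and 3.36-fold higher. The summed signal of the 4 defining macrophage markers on the array was 13.0 and 9.72 on LS arrays, against 11.1 and 9.40 on LSFF arrays, and overlapped. Itgam made up most of this sum and lay between 2.34 and 3.37 on every array of the series, so the sum says little about the other markers. The sum of the 4 defining endothelial markers did not overlap, at 9.36 and 8.92 on LS arrays, against 4.13 and 3.55 on LSFF arrays. On LS arrays 2 and 1 of these 4 markers were well above background, against 3 and 2 on LSFF arrays. Ground-state arrays summed to 6.03 to 8.02 on slide 1 and to 3.99 and 3.09 on slide 2. Kdr made up nearly all of the endothelial sum, at 3.22 and 3.15 on LS arrays, against 1.99 and 1.78 on LSFF arrays. The other endothelial markers in the sum reached at most −3.62 on these arrays. Of 10 endothelial markers, Kdr, a VEGF receptor, was called higher in LS by 1.30, and Cdh5, the cadherin of endothelial junctions, was at least 2.62-fold lower. The other tested probe of Kdr differed by 0.68, and with the mean over a gene's probes no endothelial marker was called higher. Hox genes, which mark position along the body axis and are kept by fibroblasts, were called higher for 4 of 15 tested, 4 with slide as a block and 3 with median scaling. Of the 10 Hox genes well above background on all 4 arrays, 1 was called. Leaving out any 1 of the 4 arrays gave 2 Hox calls, 3 macrophage calls and no higher endothelial call. Hoxc6 lay at −1.35 and −1.57 on LS arrays, against −3.98 and −4.51 on LSFF arrays. Among the Y-linked genes, Zfy1 and Zfy2 were called lower in LS. Zfy2 was undetected on both LS arrays, whereas Zfy1 lay at −2.58 and −7.00 on LS arrays, against −0.95 and −0.94 on LSFF arrays. How far fibroblast RNA or the Y-linked difference enters the list counts above was not tested. Without LS array 2, fibroblast markers gave 14 calls, Nodal, Activin and TGF-beta genes 6, naive genes 4 and primitive endoderm genes 3.

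**Figure D5:**
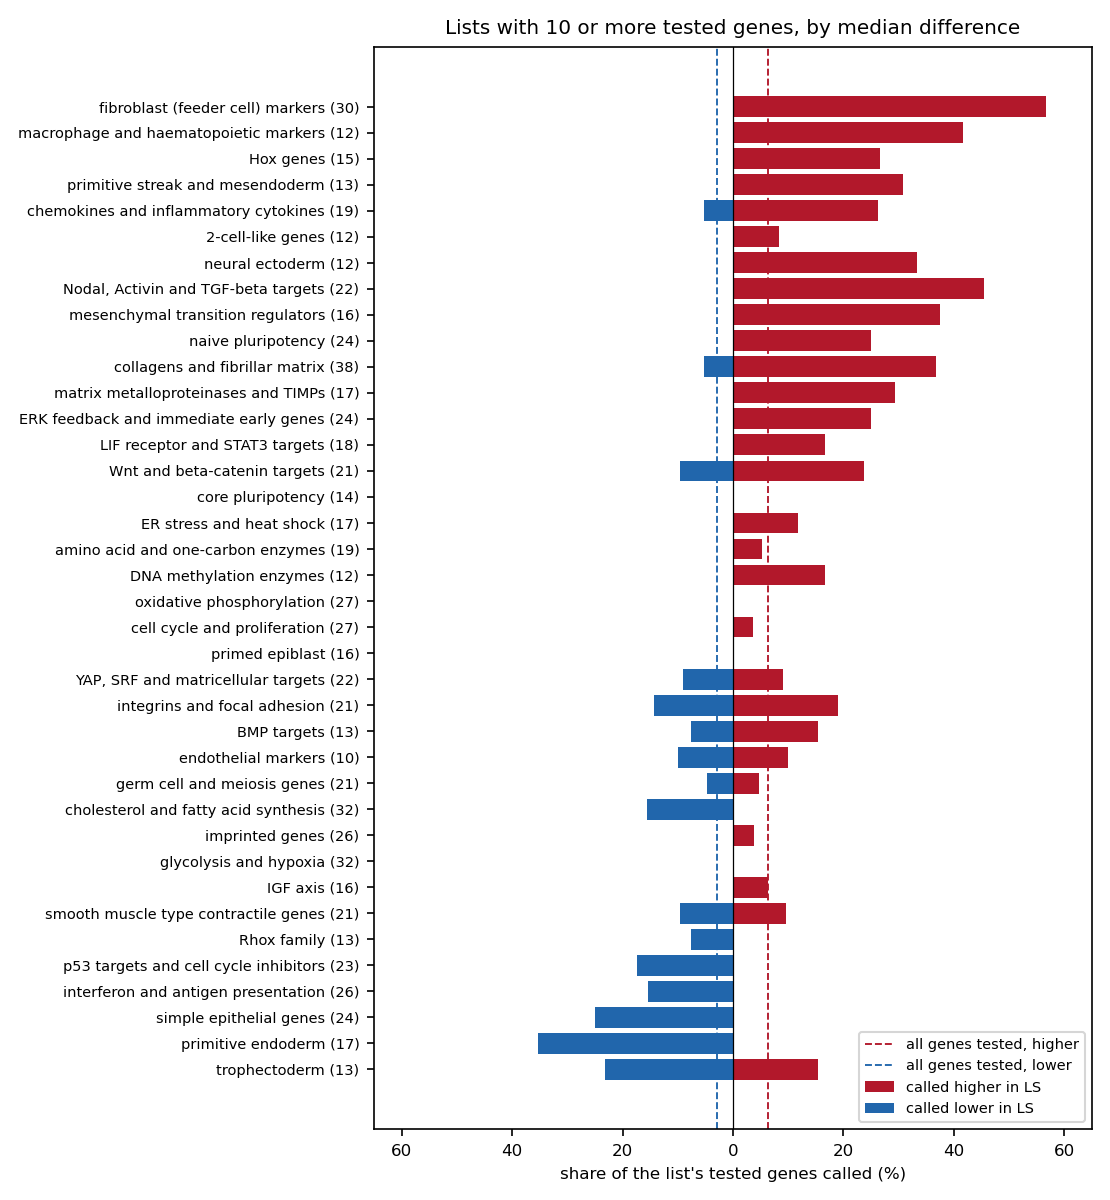
Share of each list's tested genes called higher (right) or lower (left) in LS, for lists with 10 or more tested genes (their number in parentheses), ordered by the median difference. Dashed lines mark the shares over all genes tested, 6.38% higher and 2.89% lower, and fibroblast markers reach 56.7%.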

How the data were processed

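RNA of 16 lines was measured on 1-colour Agilent arrays. Per the file headers, the deposited scanner files hold intensity values from Feature Extraction 10.7.1.1, whose processed signal is background-subtracted. The authors also deposited a log2 table of 42316 probes, made with limma per the submitters' processing notes. Its normalization is not given in these sources, and it served as an alternative. Groups came from the labels' description codes, and all columns were mapped. Outlier spots (100 to 321 per array) were left out.

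Here the processed intensity was divided by each array's 75th percentile and log2 taken. RefSeq accessions in the files named 27656 of 55681 probes (20972 genes, GRCm38.p6 table), and the brightest probe stood for a gene, of which 15221 were well above background on both arrays of LS or of LSFF. Of 33 called list or named genes with several tested probes, 3 had probes of opposite sign (Ncam1, Tgfbr2 and Tpm1). A linear model of 5 group means over 16 arrays was fitted with limma 3.58.1 (R 4.3.3, jsonlite 2.0.0), with Benjamini-Hochberg adjustment; calls need an adjusted p under 0.05 and 2-fold. Only the 2i_LIF and 2iSB_LIF arrays inform the slide term. A gene undetected in one code is given as at least N-fold, against the higher of its own signal and the array's lowest signal well above background. Each fit was tested on simulated data.

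Named genes were the 10 largest differences each way among genes called in both fits, non-overlapping and well above background on the 4 arrays, the 4 largest bounds each way, Gbx2, Ccl2, Fbn1 and Nr0b1, and members of 40 lists (697 genes tested). Members and lists were chosen with earlier results of these data known. Alternatives were the slide, replicate and passage terms, scaling, background correction, probe filters, deposited values and leaving out arrays. The normexp alternative used the median signal (offset 50), since the scanner files used here have no mean-signal column, which the planned design named. Promoter sequences are RefSeq's.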

Additional observations from a re-analysis of the deposited data

Results flagged for a closer look

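S100a4 on 2iSB_LIF array 3 lay at −4.83, against −3.20 to −2.88 on the other 3 arrays of that group, and this array is the only one of them on slide 2. Fbn1 on 2iSB_LIF array 1 lay at −5.73, against −4.99 to −4.88 on the others. On EpiSC array 3, Rassf8 lay at −2.07, against −1.895 to −1.888 on the others, and Cxcl16 at −1.05, against −1.93 to −1.90. These 4 single arrays lay far from the others of their group by Dixon's test at the 95% level, out of 90 sets of gene and group looked at, and chance alone picks about 1 in 20. LS and LSFF, with 2 arrays each, could not be examined this way.

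For 1029 genes the slide 1 minus slide 2 difference in the LIF serum lines differed from that in the 2i_LIF and 2iSB_LIF lines in limma's fit with slide as a block. This is the same count as the blocked comparison of LS with LSFF.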

How the results depend on the processing

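The value as reported was 1411 calls between LS and LSFF (971 higher, 440 lower), with 136 members of the fixed lists, 17 fibroblast, 6 naive and 10 Nodal, Activin and TGF-beta genes higher, 6 primitive endoderm genes lower, and 1072 slide calls. With slide as a block, 2 primitive endoderm genes were called. A fit on the 4 LIF serum arrays alone called 2863 genes (1757 higher, 1106 lower), 230 list members and 14 primitive endoderm genes. Normexp background correction gave 558 higher genes. Median scaling gave 486 higher and 890 lower genes, 1 naive gene, 5 Nodal, Activin and TGF-beta genes and 3187 slide calls, and quantile normalization 662 lower genes and 656 slide calls. Requiring detection on all 4 arrays, which tests fewer genes, gave 851 calls (509 higher), 89 list members and 11 fibroblast markers. Leaving out 1 LS or LSFF array gave 343 to 714 calls (252 to 464 higher, 91 to 250 lower), 55 to 85 list members, 12 to 14 fibroblast, 2 to 4 naive, 2 to 3 primitive endoderm and 5 to 6 Nodal, Activin and TGF-beta genes. Leaving out 1 ground-state array, an alternative added after seeing the data, gave 906 to 1182 slide calls. The cause was not tested except where fewer genes or arrays entered. The lone array of a code is then assumed to vary like the other groups.

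Replicate numbers are shared between LS and LSFF only as names: the differences between arrays 1 and 2 correlated at 0.12 over 15171 genes. The replicate block gave 1206 calls. For the named genes, 443 values under the alternatives kept direction and side of the threshold, 28 lost the call and 0 turned sign. Of the counts for other lists, 874 stayed within 1.5 times and 278 moved. For the 741 genes detected on both LS arrays and neither LSFF array, and the 139 detected the other way, the signal over background limits a difference to a bound.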
